A study of Mus musculus with 2 samples.

Results

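The 9 genes *Bex1*, *Emid1*, *Cdo1*, *Apobec3*, *Pla2g1b*, *St3gal1*, *Cpne8*, *Acss3* and *Ppp1r9a* were taken from a fixed list, selected on their lower counts in *Taf4*-inactivated than in control mouse enteroids. They are 9 of 16665 genes listed in at least 1 of the tables of the series and 9 of 10002 genes with at least 200 UMIs over both. A UMI, or unique molecular identifier, marks 1 captured RNA molecule. Because the list was selected on this contrast, its values are a description and carry no test. The name under which the genes were gathered, control-restricted and almost missing after inactivation, held for 7 of them at an 8-fold limit. *Cpne8* came close to that limit and *St3gal1* did not, and the cells that kept *St3gal1* are described separately.

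The series holds 2 single-cell libraries of 3′ UMI counts from organoid cultures of ileal crypts (enteroids) of 4-month-old mice of the C57Bl6/129sv strain, 1 library for each genotype. The control enteroids were *Taf4* lox/lox by the study's methods and wild type by their label. The others were *Taf4* lox/lox::VilCreERT2 (hereafter Taf4IEC), in which the villin promoter drives a tamoxifen-activated Cre in gut epithelium, and both therefore carried the lox alleles by the methods. Taf4IEC enteroids received 1 µM 4-hydroxytamoxifen for 3 days, from day 5 to 8 of culture, and live cells were sorted. The sources differ on the control, which was given ethanol by its label and 4-hydroxytamoxifen by the methods. How many mice or cultures entered each library is not given in the sources used here, and with 1 library a group the genotype, the treatment, the culture and the library cannot be told apart.

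The control library held 2563 cells and 39947009 UMIs, and the Taf4IEC library 1811 cells and 24990128 UMIs. Control cells were deeper, with a median of 16749 UMIs against 2254, and 49.1% of Taf4IEC cells had fewer than 2000 UMIs (17.3% of control cells). *Taf4* itself had 278 UMIs in the control and 236 in Taf4IEC, a log2 ratio of 0.44 (0.18 to 0.70). A 3′ count of a transcript with a deleted part need not fall, so this does not check the genotype, and the second group is called the library labelled Taf4IEC. The X inactivation gene *Xist* was abundant in both (52008 and 31153 UMIs), and of 4 Y-linked genes only *Uty* was listed, with 1 UMI in the control. Only 2 cell barcodes occurred in both libraries, and those cells held 3 UMIs of the 9 genes in the control and 0 in Taf4IEC. Markers of immune cells, fibroblasts, endothelium and neural cells summed to between 0.00175 and 0.019 UMIs per 10000 in the control and between 0.0012 and 0.0316 in Taf4IEC.

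The 9 genes have no common pathway. *Bex1* encodes a small adaptor protein of a family on the X chromosome, best known from the nervous system and from neurotrophin signalling. *Cdo1* (cysteine dioxygenase), *Acss3* (a mitochondrial short-chain acyl-CoA synthetase) and *Pla2g1b* (a secreted phospholipase A2, known as a digestive enzyme of the pancreas) are enzymes of amino acid, fatty acid and phospholipid metabolism. *St3gal1* adds sialic acid to O-linked sugar chains, such as those of mucins, and *Apobec3* is a cytidine deaminase that restricts retroviruses. *Emid1* encodes an extracellular matrix protein, *Cpne8* a calcium-dependent membrane-binding protein (copine), and *Ppp1r9a* neurabin, which ties protein phosphatase 1 to actin. The small intestinal epithelium renews from stem cells at the crypt base, which yield absorptive enterocytes and the secretory Paneth, goblet, enteroendocrine and tuft cells.

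The genes lie on 7 chromosomes of the GRCm38 build, which is the mm10 build of the counts. On chromosome 15 lie 3 of them, *St3gal1* (67102875 to 67176946), *Apobec3* (79892058 to 79918218) and *Cpne8* (90487481 to 90679388), far apart from each other. *Bex1* is on chromosome X (136213972 to 136215513), *Emid1* on chromosome 11 (5106265 to 5152322), *Pla2g1b* on chromosome 5 (115466142 to 115474722), *Acss3* on chromosome 10 (106933514 to 107123761) and *Ppp1r9a* on chromosome 6 (4902872 to 5165661). *Apobec3* overlaps *Cbx7*, and because it is not stated whether counting used strand, reads of the overlap may be counted for either. *Cbx7* had 186 UMIs in the control and 126 in Taf4IEC, a log2 ratio of 0.11 (-0.22 to 0.45), so the overlapping gene did not carry the same difference.

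RefSeq promoter sequences (GRCm38.p6) were held for 6 of the 9 genes, with 9 start sites. The 250 bases before the start are shown for *Bex1*, whose UMIs outnumbered those of the other members together, for *Emid1* and *Apobec3*, which marked different control cells, and for *Pla2g1b*, which had the lowest CpG content. The sequences run 5′ to 3′ on the strand of the gene and end at the base before the start, with CpG dinucleotides in capitals.
Bex1, chrX:136215514-136215763, minus strand: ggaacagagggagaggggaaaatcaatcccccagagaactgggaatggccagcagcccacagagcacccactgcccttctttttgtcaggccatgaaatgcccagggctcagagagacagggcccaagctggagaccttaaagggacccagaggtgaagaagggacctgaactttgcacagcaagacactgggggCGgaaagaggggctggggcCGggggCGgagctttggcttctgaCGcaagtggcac
Emid1, chr11:5152231-5152480, minus strand: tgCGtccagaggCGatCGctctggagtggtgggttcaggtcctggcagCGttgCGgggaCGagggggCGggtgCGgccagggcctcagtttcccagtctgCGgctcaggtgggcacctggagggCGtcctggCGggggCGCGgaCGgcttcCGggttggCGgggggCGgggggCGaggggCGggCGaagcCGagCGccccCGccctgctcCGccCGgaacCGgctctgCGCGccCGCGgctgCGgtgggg
Apobec3, chr15:79892158-79892407, plus strand: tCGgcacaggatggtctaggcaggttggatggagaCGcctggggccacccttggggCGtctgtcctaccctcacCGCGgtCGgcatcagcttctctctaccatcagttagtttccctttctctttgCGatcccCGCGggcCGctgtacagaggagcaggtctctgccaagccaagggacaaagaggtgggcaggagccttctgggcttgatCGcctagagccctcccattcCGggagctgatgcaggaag
Pla2g1b, chr5:115465892-115466141, plus strand: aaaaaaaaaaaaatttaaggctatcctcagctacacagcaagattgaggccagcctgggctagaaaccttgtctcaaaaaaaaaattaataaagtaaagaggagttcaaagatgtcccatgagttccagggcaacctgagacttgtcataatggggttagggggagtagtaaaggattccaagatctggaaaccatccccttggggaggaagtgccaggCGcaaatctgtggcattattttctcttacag
These windows had no common base composition. The ratio of observed to expected CpG was 0.185 for *Bex1*, 0.868 for the first *Emid1* start, 0.513 for the first *Apobec3* start and 0.0906 for *Pla2g1b*, against a median of 0.374 over 32851 mouse promoters. Over all 9 windows it ran from 0.0906 to 0.868, with *Cpne8* at 0.817 and the first *Ppp1r9a* start at 0.865. The 4 motifs were searched on both strands. GGGCGG was in 5 of the 9 windows (*Bex1*, the first of *Emid1*, *Cpne8* and both of *Ppp1r9a*) and in 32.7% of all promoters. TATAAA and CCAAT were each in 1 window, that of the second *Apobec3* start, and in 12.4% and 33.8% of all promoters. CACGTG was in the first *Ppp1r9a* window and in 6.02% of all promoters. A match describes these letters only.

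The first question was how much of each gene was left in the library labelled Taf4IEC. Levels are UMIs per 10000 UMIs of the library with exact Poisson 95% intervals, ratios have exact conditional intervals, and both cover counting error only. *Bex1* had 18114 UMIs in the control, a level of 4.53 (4.47 to 4.60), and 68 UMIs in Taf4IEC, a level of 0.0272 (0.0211 to 0.0345). That was 167-fold lower (131 to 215), or -7.38 on the log2 scale, the third lowest of all 10002 genes when genes at 0 are ranked by their bounds. It was also the member with the most UMIs left in Taf4IEC after *St3gal1*.

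The matrix gene *Emid1* had 413 UMIs in the control and 5 in Taf4IEC, a log2 ratio of -5.69 (-7.32 to -4.46). *Cdo1* (chromosome 18, 46713193 to 46728502) had 525 UMIs against 10, a log2 ratio of -5.04 (-6.11 to -4.15). *Apobec3* had 299 UMIs against 6, a log2 ratio of -4.96 (-6.42 to -3.82). These 3 genes were each more than 30-fold lower, with ratio intervals that overlapped one another.

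*Acss3* had 303 UMIs in the control and no row in the Taf4IEC table, from which unexpressed genes had been removed, and was taken as 0. *Ppp1r9a* had 251 UMIs in the control and was listed at 0. Against a floor of 3 UMIs over the Taf4IEC library, *Acss3* was at least 63.2-fold lower and *Ppp1r9a* at least 52.3-fold lower. They were the only members without any UMI there.

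*Pla2g1b* had 824 UMIs in the control and 37 in Taf4IEC, a log2 ratio of -3.80 (-4.32 to -3.33). *Cpne8* had 210 UMIs against 18, a log2 ratio of -2.87 (-3.65 to -2.17), an interval that contains 8-fold. *St3gal1* had 401 and 104 UMIs, only 2.41-fold lower (1.94 to 3.02), and 226 genes of the series had a lower ratio. So the list spans from 2.41-fold to 167-fold lower.

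**Figure D1:**
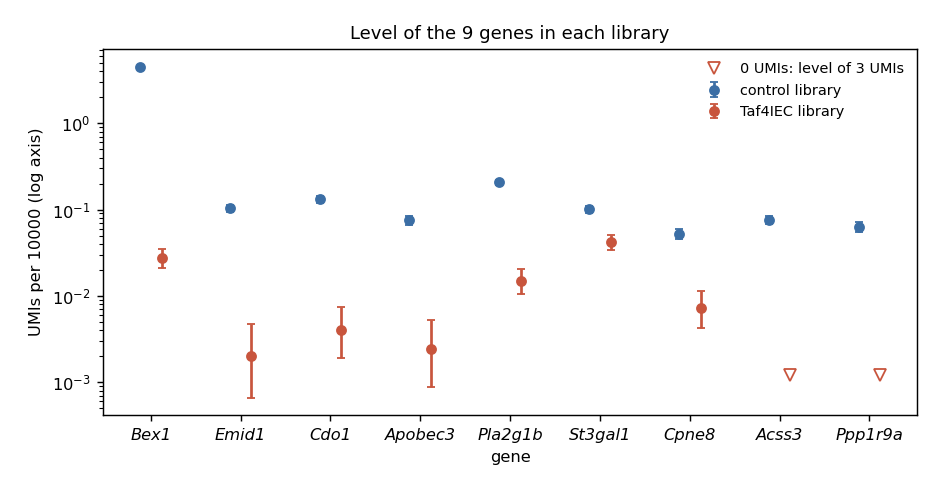
Level of each of the 9 genes in UMIs per 10000 (log axis) in the control library (blue) and the library labelled Taf4IEC (red), with exact Poisson 95% intervals of the counts. Open triangles mark genes with 0 UMIs, drawn at the level that 3 UMIs would give. *Bex1* lies at 4.53 in the control and 0.0272 in Taf4IEC, while the *St3gal1* points lie closest together, at 0.1 and 0.0416.

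Among all 10002 genes with at least 200 UMIs, 20 were at least 8-fold lower in Taf4IEC (0.200%) and 21 at least 8-fold higher (0.210%). Of the 9 members, 7 were among those 20, which the selection of the list fixes. The other 13 were *Gm10260*, *Gm42047*, *BC023719*, *Dkk2*, *Gm12166*, *H2-T3*, *Nrn1*, *Syne4*, *Gm11361*, *Rangrf*, *Gm26825*, *C2cd4a* and *Jmjd7*. *Cpne8* was just outside that limit, at rank 21. The median log2 ratio of all these genes was 0.16.

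**Figure D2:**
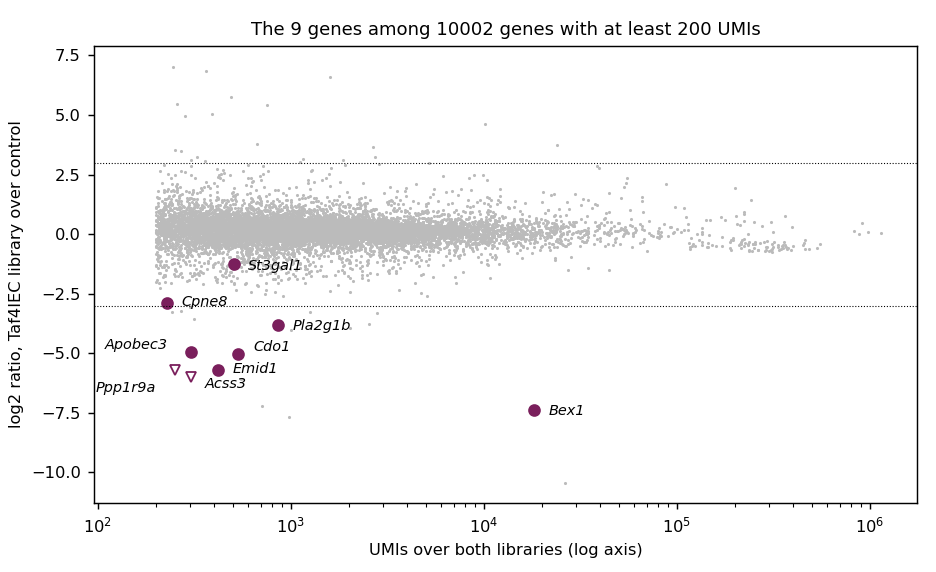
Log2 ratio of the level in the library labelled Taf4IEC over the control against the UMIs of both libraries (log axis), for 10002 genes with at least 200 UMIs. Named points are the 9 genes, open triangles mark upper bounds for genes with 0 UMIs in Taf4IEC, and dotted lines mark 8-fold. *Bex1* has by far the most UMIs of the members, 18114 in the control, and *St3gal1* lies nearest to the other genes, at -1.27.

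The share of cells with a UMI was lower in the library labelled Taf4IEC for each of the 9 genes. *Bex1* was found in 1948 of 2563 control cells (76.0%, Clopper-Pearson 95% interval 74.3 to 77.6) and in 7 of 1811 Taf4IEC cells (0.387%, 0.156 to 0.795). The other members were found in 6.75% (*Cpne8*) to 18.8% (*Pla2g1b*) of control cells. Because cells of the Taf4IEC library were shallower, each cell was also thinned to 5000 UMIs, which left 1988 control and 758 Taf4IEC cells and dropped 575 and 1053. *Bex1* was then in 72.2% (70.2 to 74.2) and 0.528% (0.144 to 1.35) of cells. *Emid1* was in 4.73% and 0.132% of the thinned cells, and *Cdo1* in 5.68% and 0.264%. *Acss3* was in 3.37% and *Ppp1r9a* in 3.32% of thinned control cells, and both in 0 of 758 Taf4IEC cells, which allows a share with a UMI of up to 0.396% at that depth (3 cells of the total). *St3gal1* was the exception, in 4.12% (3.29 to 5.09) of thinned control and 3.30% (2.15 to 4.83) of thinned Taf4IEC cells, with overlapping intervals.

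The 68 *Bex1* UMIs of the library labelled Taf4IEC were not spread over its cells. They came from 7 cells, and 4 of these held 24, 19, 15 and 7 UMIs, together 95.6% of the total. In those 4 cells *Bex1* stood at 6.77, 5.36, 5.83 and 5.01 UMIs per 10000, against 5.82 in control stem-like cells. The first 3 were in stem-like and the fourth in an enteroendocrine-like cluster, classes named from marker lists. The 4 cells are picked out by these counts, so their likeness to the control level is a description only. The other 3 cells had 1 UMI each, and 1804 cells had none, among them 681 of the 688 cells with at least 10000 UMIs. The 4 cells with 7 or more *Bex1* UMIs were 0.221% of all cells (0.0602 to 0.565), and all other cells together held 3 *Bex1* UMIs. The 8 other members had 2 UMIs in the 4 cells (1 of *Pla2g1b* and 1 of *St3gal1*), where 10.2 would have been found at the control levels. None of the 4 cells carried a barcode that was also present in the control, and RNA or cells passed between libraries by another route was not tested. Without these cells the *Bex1* log2 ratio was -11.88 (-14.15 to -10.33), on 3 UMIs.

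Cells of each library were clustered alone, without the 9 genes, and clusters were named from marker lists. In the control, 1051 cells were stem-like, 232 enterocyte-like, 191 Paneth/goblet-like and 262 enteroendocrine-like, and 827 stayed unnamed. In the library labelled Taf4IEC the numbers were 432, 313, 131 and 199, with 15 tuft-like and 721 unnamed cells, the unnamed ones having a median of 654 UMIs. The 11 stem markers summed to 24.5 UMIs per 10000 in control stem-like cells and 0.993 in enterocyte-like cells, and the 12 enterocyte markers to 5.38 and 172. Stem-like cells came from 5 control clusters, 3 of them led by replication or mitosis genes and 1 by interferon-response genes (*Cxcl10*, *Ifit1*, *Isg15*). They came from 3 Taf4IEC clusters, so that different kinds of cluster hold the class in each library. Of the 432 Taf4IEC cells, 184 were in a cluster led by genes such as *Anxa1*, *Krt15* and *Ly6d*, with 5 of 11 stem markers raised. Another 214 were in a cluster led by mitosis genes, with 4 stem markers raised and a median of 2372.5 UMIs. Of the Taf4IEC enterocyte-like cells, 145 were in a cluster with 4 of 12 enterocyte markers raised and none among its leading genes, which included *Tmem237* and *Mpp4*, as did those of 1 unnamed control cluster. The proliferation gene *Mki67* stood at 1.67 UMIs per 10000 in control and 0.661 in Taf4IEC stem-like cells, and its part in the values was not tested.

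In the control, 7 of the 9 genes had their lowest level of the named classes in enterocyte-like cells. The share of all genes that were lowest there was not computed, so this count describes the list and is no trait particular to it. *Bex1* was at 5.82 UMIs per 10000 in stem-like cells, 3.75 in enteroendocrine-like, 3.29 in Paneth/goblet-like and 0.164 (0.129 to 0.206) in enterocyte-like cells. It was found in 96.7% of stem-like and 22.0% of enterocyte-like cells, at median depths of 21121 and 20956 UMIs. Free RNA was not measured, and its part in these shares was not tested.

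*Emid1* and *Cdo1* were highest in stem-like cells, as was *Bex1*. *Emid1* stood at 0.15 (0.134 to 0.167) there, 0.058 in enteroendocrine-like and 0.0125 in Paneth/goblet-like cells, with 2 UMIs in enterocyte-like cells. *Cdo1* stood at 0.19 (0.172 to 0.209), then 0.0889 and 0.0749 in enteroendocrine-like and Paneth/goblet-like cells, whose intervals overlap. Of all control UMIs, 80.1% for *Emid1*, 80% for *Cdo1* and 71.0% for *Bex1* came from stem-like cells. *Cpne8* also had the highest level of the named classes there, 0.0557 (0.0463 to 0.0664), but the next level, 0.0375 (0.0194 to 0.0654) in Paneth/goblet-like cells, overlapped it. In the unnamed cells *Cpne8* stood higher, at 0.0762 (0.0578 to 0.0984), an interval that also overlaps that of stem-like cells.

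*Apobec3* and *Pla2g1b* were highest in Paneth/goblet-like cells. *Apobec3* stood at 0.228 (0.179 to 0.287) there, 0.0797 in stem-like and 0.0773 in enteroendocrine-like cells, the last pair with overlapping intervals, and had 0 UMIs in 232 enterocyte-like cells. *Pla2g1b* stood at 0.45 (0.379 to 0.529) in Paneth/goblet-like and 0.229 (0.209 to 0.249) in stem-like cells. A few cells held much of it, up to 21 UMIs in 1 cell, and 70.8% of the Paneth/goblet-like cells with at least 10000 UMIs had none, where a Poisson count at the same mean gives 44.9%.

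*Acss3* and *Ppp1r9a* were highest in enteroendocrine-like cells. *Acss3* was at 0.22 (0.167 to 0.285) there and 0.077 (0.0658 to 0.0894) in stem-like cells. *Ppp1r9a* was at 0.12 (0.0814 to 0.17) and 0.0742 (0.0633 to 0.0865), intervals that overlap. *St3gal1* differed little between the named control classes, from 0.0869 in stem-like to 0.119 in Paneth/goblet-like cells, all with overlapping intervals. In the unnamed cells it was higher, at 0.131 (0.107 to 0.16), an interval above that of stem-like cells (0.0751 to 0.1).

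**Figure D3:**
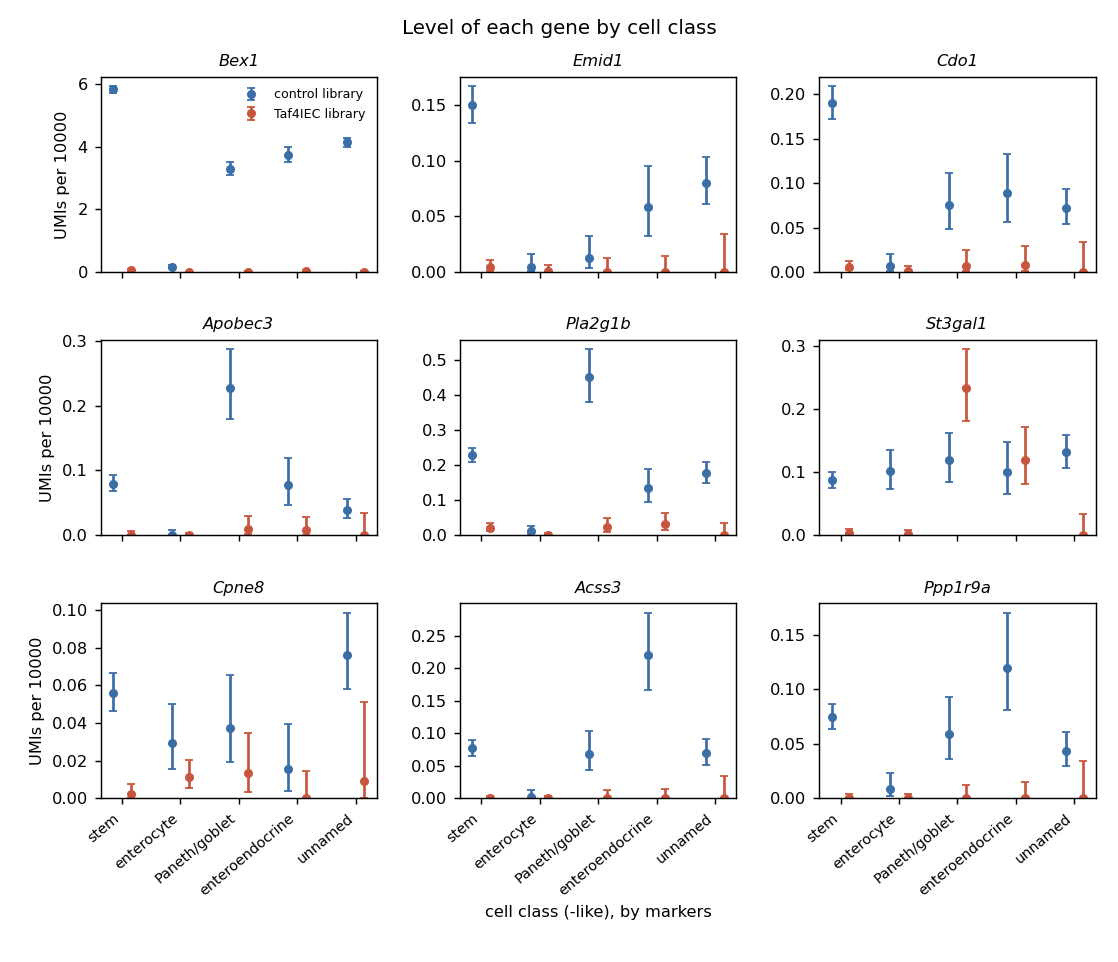
Level of each gene in UMIs per 10000 by marker-defined cell class, in the control library (blue) and the library labelled Taf4IEC (red), with exact Poisson 95% intervals. Axes start at 0 and differ between panels. In Taf4IEC all points lie at or near 0 except those of *St3gal1*, which reach 0.233 in Paneth/goblet-like and 0.12 in enteroendocrine-like cells, and low points of *Cpne8*.

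Within stem-like cells each of the 9 genes was at least 8-fold lower in the library labelled Taf4IEC, against 7 over all cells. The list was selected on this contrast, and the share of all genes past 8-fold within this class was not computed. The count is therefore no measure of a fuller loss in stem-like cells, whose clusters also differed between the libraries. *Bex1* was at 5.82 in control and 0.0639 in Taf4IEC stem-like cells, a log2 ratio of -6.51 (-6.90 to -6.14). *Cpne8* had 123 UMIs against 2 there, a log2 ratio of -4.68 (-7.75 to -2.80), an interval that contains 8-fold. *Pla2g1b* had 505 UMIs against 20, a log2 ratio of -3.40 (-4.12 to -2.76), the smallest difference of the 9. That interval contains 8-fold too. In Paneth/goblet-like cells *Pla2g1b* had 144 and 7 UMIs and *Apobec3* 73 and 3, log2 ratios of -4.25 (-5.59 to -3.17) and -4.49 (-6.80 to -2.89). *Acss3* had 57 UMIs in control enteroendocrine-like cells and 0 in Taf4IEC, at least 18.4-fold lower against a floor of 3 UMIs over those cells.

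*St3gal1* split by class. In stem-like cells it had 192 UMIs in the control and 3 in Taf4IEC, a log2 ratio of -4.74 (-7.03 to -3.17). In enterocyte-like cells it had 45 UMIs against 2, a log2 ratio of -5.51 (-8.60 to -3.57). Both of these Taf4IEC UMIs were in the Taf4IEC cluster with all 12 enterocyte markers raised (0.00439 per 10000), and 0 in the one with 4 of them raised. In Paneth/goblet-like cells, by contrast, it had 38 UMIs in the control and 69 in Taf4IEC, a log2 ratio of 0.97 (0.38 to 1.58), and in enteroendocrine-like cells 26 and 30 UMIs, a ratio of 0.25 (-0.55 to 1.07).

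Nearly all of the 104 *St3gal1* UMIs in Taf4IEC therefore came from these secretory classes. At least 1 UMI was found in 34 of 131 Paneth/goblet-like cells, although 62.5% of the 88 deep ones had none where a Poisson count gives 47.5%. Each of these Paneth/goblet-like groups was a single cluster, led by *Muc2*, *Zg16* and defensin genes in both libraries. The 18 Paneth/goblet markers summed to 638 UMIs per 10000 in the control and 1498 in Taf4IEC cells of this class, so that they too were higher, and their part in the *St3gal1* value was not tested. Among the other members with UMIs in both libraries, only *Cpne8* had an interval that reached 0 in a secretory class, with 12 and 4 UMIs in Paneth/goblet-like cells and a log2 ratio of -1.47 (-3.56 to 0.25). *Emid1* and *Cpne8* had too few control UMIs for a useful bound in one secretory class each, 4 UMIs in Paneth/goblet-like and 4 in enteroendocrine-like cells, against 0 in Taf4IEC.

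Control cells differed among themselves in these genes. In 1006 control stem-like cells with at least 10000 UMIs, *Bex1* had a median of 11 UMIs per cell and was missing from 24 cells (2.39%), where a Poisson count at the same mean leaves 0.00743%. *Apobec3* was missing from 90.3% of cells against 84.5% by Poisson, *Pla2g1b* from 70.1% against 61.6% and *Cdo1* from 72.6% against 66.5%. *Acss3* and *Ppp1r9a* were within 1.1 percentage points of the Poisson share. Over the 36 pairs of members, Pearson r on log2(UMIs per 10000 + 0.1) across these cells was from -0.12 to 0.21 and within 0.1 of 0 for 33 pairs, which at these counts is no finding. The pair at 0.21 was *Cdo1* and *Apobec3*. *Apobec3* was in 19.2% of cells with *Cdo1* and in 6.16% of cells without it.

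Most stem-like cells with *Apobec3* also differed from the other cells by another measure, examined after these values were seen. The share of UMIs from 343 chromosome 15 genes, the members left out, fell into 2 ranges in the 1006 cells. In 842 cells it had a median of 5.10% of the UMIs of genes of moderate level, and in 164 cells (16.3%) at or over 1.2 times the median cell it was 7.44%, 1.46 times as high. Only 10 cells lay within 0.05 of that limit. The difference ran over the chromosome. When cells were sorted by 172 of the genes, 166 of the 171 others were higher in the upper range, with a median ratio of 1.43, while genes of other chromosomes had a median ratio of 0.999. The upper range held all 85 deep cells of 1 control stem-like cluster and 0 of 204 of another. Over the 5 stem-like clusters the level of *Apobec3* ran from 0 to 0.295 and that of *Emid1* from 0.0123 to 0.199 UMIs per 10000, whereas *Bex1* ran only from 5.11 to 7.17. In the library labelled Taf4IEC, 15 of 256 deep stem-like cells were over the same limit relative to their own median, and 8 lay near it. With 354 chromosome 15 genes, the median share was 5.77% in the 15 cells and 4.37% in the others, 1.32 times as high. These cells were therefore not shown to form a range like that of the control. How the 2 ranges arose was not tested.

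*Apobec3* had 151 UMIs in the 164 cells of the upper range, 0.444 per 10000 (0.376 to 0.52), and 19 in the 842 others, 0.0103 (0.00622 to 0.0161). Of the 98 cells with an *Apobec3* UMI, 81 were in the upper range (82.7%). The log2 ratio of 5.43 (4.73 to 6.20) was much larger than the 1.46 times of the chromosome as a whole. *Cpne8*, also on chromosome 15, was at 0.12 (0.0865 to 0.163) and 0.0446 (0.0354 to 0.0553), and *Cdo1*, on chromosome 18, at 0.417 (0.351 to 0.492) and 0.149 (0.132 to 0.168).

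*Emid1* went the other way, with 2 UMIs in the upper range against 326 in the lower, a log2 ratio of -4.91 (-7.97 to -3.05). *St3gal1*, on chromosome 15 itself, had 7 UMIs against 184, a log2 ratio of -2.28 (-3.62 to -1.21), and *Ppp1r9a* 9 against 154, a log2 ratio of -1.66 (-2.82 to -0.70). The direction of *St3gal1* was not the same in the Paneth/goblet-like class, where the upper range had 16 UMIs (0.219 per 10000) and the lower 21 (0.0908), a log2 ratio of 1.27 (0.23 to 2.28) over 161 cells, 17 of them near the limit. The limit in that class was set from its own median. *Apobec3* there had 46 UMIs in the upper range (0.628 per 10000) and 26 in the lower (0.112), a log2 ratio of 2.48 (1.76 to 3.24). Of the 42 cells of that class with an *Apobec3* UMI, 27 were in the upper range. In stem-like cells *Bex1* was high in both ranges, 6.93 (6.65 to 7.21) and 5.61 (5.50 to 5.72). *Acss3* was at 0.0529 and 0.0826 with overlapping intervals, and *Pla2g1b* at 0.376 (0.314 to 0.447) and 0.199 (0.18 to 0.221). The cells of the 2 ranges had median depths of 19710 and 21628.5 UMIs.

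**Figure D4:**
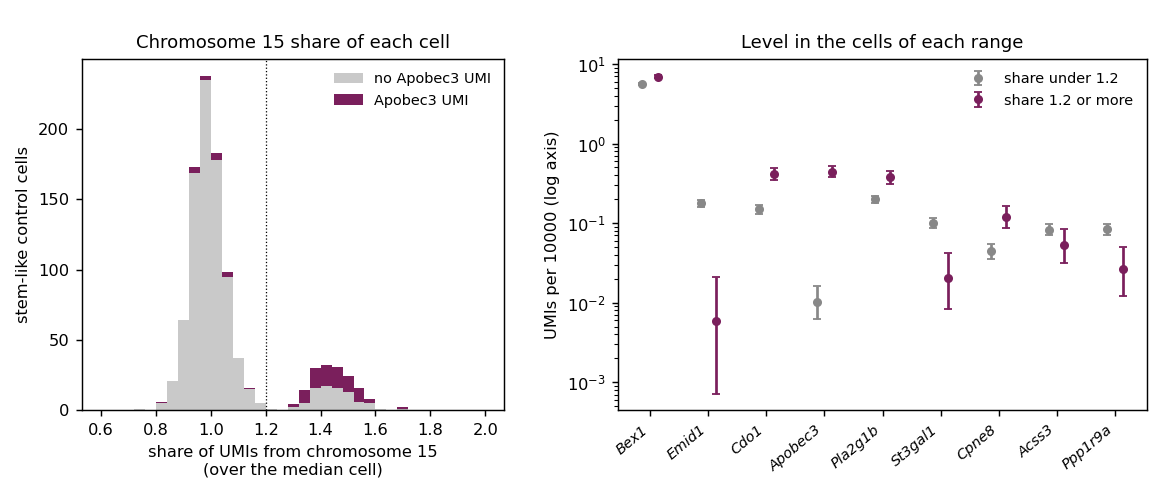
Left, number of the 1006 deep control stem-like cells by their share of UMIs from chromosome 15 genes over that of the median cell, those with an *Apobec3* UMI in purple and the limit of 1.2 dotted. Right, level of each gene in UMIs per 10000 (log axis) in the 842 cells under the limit (grey) and the 164 at or over it (purple), with exact Poisson 95% intervals. *Apobec3* lies at 0.444 over and 0.0103 under the limit, and *Emid1* at 0.00588 and 0.177.

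The comparison with the library labelled Taf4IEC therefore depended on which control cells were used. These values are for cells of every class with at least 10000 UMIs, in both libraries. Classes were not matched between the ranges, so a gene such as *St3gal1*, whose direction differed by class, mixes both differences. Against all deep control cells of the lower range, the *Apobec3* log2 ratio was -2.15 (-3.69 to -0.89), and against the upper range -7.18 (-8.64 to -6.04). *Emid1* was at -5.89 (-7.52 to -4.65) against the lower range and at -1.10 (-3.47 to 1.58) against the upper, on 3 control UMIs. *Cdo1* stood at -4.58 and -6.06, and *Cpne8* at -2.56 (-3.38 to -1.82) and -3.94 (-4.80 to -3.17). *St3gal1* stood at -1.40 (-1.74 to -1.08) against the lower range and at -0.42 (-0.98 to 0.17) against the upper, an interval that contains 0. *Bex1* moved least of these, from -7.23 to -7.48. At least 8-fold lower were 6 members against the lower range and 7 against the upper. The share of all genes past 8-fold was not computed for either range, so these counts describe the list only. *Acss3* and *Ppp1r9a* stayed at least 8-fold lower against both ranges.

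The level of a gene next to a member was not used to select the members. The nearest 2 listed genes on each side, 36 in all, were compared, and 27 had at least 200 UMIs. Around the 8 members other than *Bex1*, 24 such neighbours had log2 ratios from -0.45 to 0.75 with a median of 0.11, and 0 were at least 2-fold lower (3.48% of all 10002 genes were) or higher (5.52% of all genes). *Rhbdd3*, whose annotated end is 0.165 kb from *Emid1*, had a log2 ratio of 0.29 (0.07 to 0.52). *Atg12*, 3.92 kb from *Cdo1*, stood at -0.02 (-0.17 to 0.13).

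Next to *Bex1* the genes were lower as well. *Bex4* had 664 UMIs in the control and 72 in Taf4IEC, a log2 ratio of -2.53 (-2.90 to -2.18), and *Tceal8* 180 against 27, at -2.06 (-2.70 to -1.47). *Tceal9*, on the other side, stood at -0.98 (-1.02 to -0.94), and *Tceal7*, between it and *Bex1*, had 20 and 0 UMIs. These genes are paralogs in a cluster on the X chromosome. Whether reads of similar sequence were shared or lost between them was not tested.

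**Figure D5:**
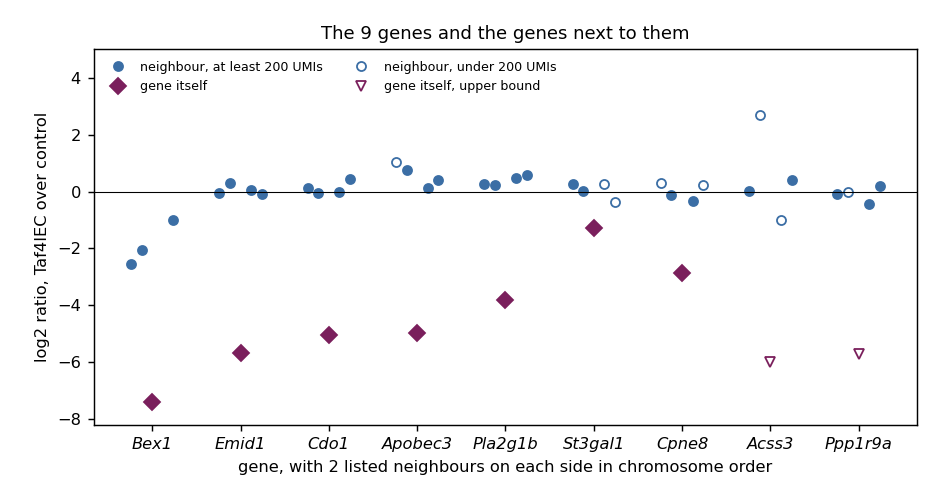
Log2 ratio of the level in the library labelled Taf4IEC over the control for each of the 9 genes (purple, open triangles for upper bounds) and for the 2 listed genes on each side of it in chromosome order (blue, open where under 200 UMIs). *Tceal7*, with 0 UMIs in Taf4IEC, is not drawn. Neighbours with at least 200 UMIs lie between -0.45 and 0.75 except those of *Bex1*, which reach -2.53.

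The relatives of each member were compared from fixed family lists, in which 36 of 76 genes had at least 200 UMIs. Of these, 3 were at least 2-fold lower, against 3.48% of all genes, and 5 at least 2-fold higher, against 5.52%, with a median log2 ratio of -0.02. The 3 lower ones were all in the *Bex* and *Tceal* list, *Bex4* and *Tceal8* as above and *Bex2* with a log2 ratio of -1.25 (-1.45 to -1.05). *Bex3* stood at -0.40 (-0.47 to -0.33).

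No gene of another list with at least 200 UMIs was at least 2-fold lower. Under that minimum, *Pla2g10*, a secreted phospholipase A2 like *Pla2g1b*, had 128 control UMIs and 20 in Taf4IEC (log2 ratio between -2.76 and -1.31), and *Cpne7* and *Acsm3*, also lower by that factor, had 12 and 4 control UMIs and 1 each in Taf4IEC. In cysteine and taurine metabolism, 12 genes were measured and 2 were higher, *Sqor* (sulfide oxidation) at 1.10 with 1461 and 1955 UMIs, and *Suox* (sulfite oxidase) at 1.31 (1.04 to 1.59). *Csad*, the next enzyme after *Cdo1* on the way to taurine, stood at -0.22 (-0.40 to -0.03). Of 6 phospholipase A2 genes measured, *Pla2g12b* stood at 1.07 (0.90 to 1.24) and *Pla2g2f* at 1.65 (1.38 to 1.92), both higher.

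Among sialyltransferases, *St3gal4* had 1402 UMIs in the control and 4700 in Taf4IEC, a log2 ratio of 2.42 (2.34 to 2.51), the opposite direction to *St3gal1*. *St3gal6* stood at 0.49 (0.38 to 0.61). The acyl-CoA synthetases *Acss1* and *Acss2* stood at -0.96 (-1.28 to -0.66) and -0.70 (-0.82 to -0.57), and the copine *Cpne3* at 0.32 (0.22 to 0.42). All 6 genes of the list of protein phosphatase 1 and neurabins lay between -0.52 and 0.33, with *Ppp1r9b*, the paralog of *Ppp1r9a*, at 0.33 (0.10 to 0.55). No relative of *Emid1* or *Apobec3* reached 200 UMIs, *Apobec1* having 47 and 52.

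Over the 14 control clusters, the genes most like each member were found by Pearson r on log2(UMIs per 10000 + 0.01) among 8846 others. These are descriptions over clusters of 1 library that share its depth. *Bex1* was closest to *Rplp2* (0.976) and *Nfia* (0.969), *Emid1* to *Gm47283* (0.911) and *Nup133* (0.893), *Cdo1* to *Ptpro* (0.93) and *Mycl* (0.915). *Apobec3* was closest to *Kcnh3* (0.867) and its chromosome 15 neighbour *Cbx6* (0.865), and *Pla2g1b* to *Napepld* (0.932) and *Psmd3* (0.921). *St3gal1* was closest to *Stk40* (0.943) and *Tjap1* (0.932), and *Cpne8* to *Phgdh* (0.882) and *Smpdl3b* (0.88). *Acss3* was closest to *Dcaf8* (0.957) and *3010003L21Rik* (0.945), and *Ppp1r9a* to *Phtf1* (0.967) and *Prkacb* (0.961). No gene was nearest to more than 1 member.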

How the data were processed

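The authors deposited raw UMI counts per gene and cell, 1 table per library. Per the labels and the methods they used bcl2fastq 2.17.1.14, Cell Ranger 3.1 on mm10 and Seurat 3.1.4, removed unexpressed genes and retained cells in which 200 to 6000 genes were detected and mitochondrial reads stayed below 15%. Counts were summed per library, and a gene without a row was taken as 0. Sums were divided by the library total and compared with exact intervals (scipy 1.17.1), checked on simulated data. With 1 library per group no test was made. Libraries were clustered in Seurat 5.3.0 (2000 variable genes without the 9 genes, 20 components, resolution 0.9). A cluster was named for a class when at least 3 of its markers reached 1.5 times their mean over both libraries and its 10 leading genes did not go against the name. Scrublet in scanpy 1.11.5 marked 10 control and 0 Taf4IEC cells as doublets, and these were kept. Named genes are the members, their family lists, 2 listed neighbours on each side, the 20 lowest ratios and the 2 most alike genes of each member. The members and lists were chosen with earlier results of these data known.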

Additional observations from a re-analysis of the deposited data

Results flagged for a closer look

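*St3gal1* was singled out because its difference between the libraries went in opposite directions in different cell classes. Its log2 ratio, Taf4IEC over control, was 0.97 in Paneth/goblet-like cells, -4.74 in stem-like cells and -5.51 in enterocyte-like cells. The first value depended on the control cells used. Deep control Paneth/goblet-like cells stood at 0.219 per 10000 (0.125 to 0.355) in the upper chromosome 15 range, set within that class, and 0.0908 (0.0562 to 0.139) in the lower. All Taf4IEC cells of that class stood at 0.233 (0.181 to 0.295). The difference between these classes was not tested, since each class is cells of 1 library per group.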

How the results depend on the processing

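Of the 9 members, 7 to 9 were at least 8-fold lower under 8 other choices of cells, totals and classes, and no member ratio changed sign. With means over cells and with weighted classes, *Acss3* and *Ppp1r9a* had no value and were counted by their main bounds. The share of all genes past 8-fold was not computed under these choices. The sizes moved more: the log2 ratio ran from -9.72 to -6.51 for *Bex1*, -6.20 to -2.26 for *Apobec3*, -6.96 to -4.05 for *Emid1* and -4.74 to -0.94 for *St3gal1*. The -2.26 of *Apobec3* is an upper bound, from 0 UMIs in Taf4IEC cells thinned to 2000 UMIs. Its highest measured value was -4.93, in cells with at least 2000 UMIs. The number of members at least 8-fold lower was 4 when each cell was thinned to 2000 UMIs, where few UMIs remain. The bounds of genes at 0 rise there by construction, which applies to *Apobec3* and *Ppp1r9a*. *Pla2g1b* was not at 0 and had a log2 ratio of -2.87 (-4.53 to -1.59), an interval that contains 8-fold. With a minimum of 50 UMIs, 50 genes were at least 8-fold lower, 57 at least 8-fold higher, 523 at least 2-fold lower and 992 at least 2-fold higher. With 1000 UMIs these counts were 6, 8, 138 and 226. The *St3gal1* log2 ratio within Paneth/goblet-like cells was between 0.96 and 1.15 and within stem-like cells between -4.83 and -3.43 under the 5 other clusterings, naming rules and cell minimums. In each of them 7 genes were lowest in enterocyte-like cells, again without the share of all genes to set beside that count. Alternatives on the 4 *Bex1* cells and the chromosome 15 ranges were chosen after seeing the data. Depth limits genes with few UMIs, and 1 library per group leaves no measure of the spread between cultures. No paired analysis was possible because each group has 1 library and no value comes from a test.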
